A study of Mus musculus with 6 samples.

Results

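The miR-30 family was followed in the small RNA of mouse intestine, as 8 mature miRNAs among the 604 in the deposited table. The 8 entries were chosen by name, 5 from the 5p side of their hairpins (mmu-miR-30a-5p, mmu-miR-30b-5p, mmu-miR-30c-5p, mmu-miR-30d-5p and mmu-miR-30e-5p) and 3 from the 3p side (mmu-miR-30a-3p, mmu-miR-30d-3p and mmu-miR-30e-3p), and all 8 were present. No threshold enters that rule, but the measured values of NEC and Control, and the difference of miR-30a-3p among them, were known when the family was listed. The NEC minus Control values of the members are therefore a description. The study compared 6 libraries. The 3 Control libraries came from wild-type C57BL/6J pups that stayed with the dam, without hypoxia or cold, and their labels name PBS as treatment. The 3 NEC libraries came from wild-type pups that from the fifth day received 40 μl of 33% Esbilac formula every 4 h for 96 h, and that were put every 12 h in 99.9% N2 for 100 s and then at 4 °C for 10 min. Their labels also name PBS by gavage. NEC stands for necrotizing enterocolitis, a gut disease of newborns that this protocol models. Whether the libraries of a group come from separate pups is not stated, so the spread behind every p-value may be technical.

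A miRNA hairpin is cut into a short duplex with a 5p and a 3p strand. One strand, the guide, is usually kept in Argonaute and pairs with mRNAs through its seed (bases 2 to 8), and the other, the passenger, is mostly lost. In the miR-30 family the 5p strand is the usual guide. The family is known to restrain Snai1, a repressor of epithelial genes, and in human intestinal cell cultures it is known to affect the proliferation and differentiation of epithelial cells.

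The RefSeq table (GRCm38.p6) held the mature sequence of 5 of the 8 members, and these are shown because the results turn on how alike the arms are. The seed is in capitals, and each sequence runs from 5′ to 3′.
miR-30a-5p: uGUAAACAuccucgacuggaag
miR-30c-5p: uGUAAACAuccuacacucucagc
miR-30e-5p: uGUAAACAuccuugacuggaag
miR-30a-3p: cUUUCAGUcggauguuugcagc
miR-30e-3p: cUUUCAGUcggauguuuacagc
The 3 guides share the seed GUAAACA, and both passengers share UUUCAGU. Counted from 1 at the 5′ end, miR-30a-5p and miR-30e-5p differ by 1 base (C13U, the base of miR-30a-5p first), and miR-30a-3p and miR-30e-3p also by 1 base (G18A, the base of miR-30a-3p first). The sources used here do not say how many mismatches the counting allowed, so how reads were split between miR-30a and miR-30e is uncertain.

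The hairpin of miR-30a lies on chromosome 1 (GRCm38, 23272269 to 23272339, plus strand), outside other annotated genes. That of miR-30c-2 lies 19361 bases further along, from 23291701 to 23291784, in an exon of the long non-coding RNA gene Gm27028. On chromosome 4, minus strand, miR-30c-1 (120769534 to 120769622) and miR-30e (120772606 to 120772697) lie in an intron of Nfyc, which encodes a subunit of the transcription factor NF-Y. The same miR-30c-5p sequence comes from both miR-30c hairpins, so its value cannot be assigned to 1 locus.

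The authors deposited normalized values on a log2 scale, with 1 column per library. They hold no counts, so depth is unknown, and as miRNAs of low value are drawn towards their average, a difference of log2 values is not a fold of counts. The median over all 604 miRNAs was 4.78 to 5.01 per library. The library codes in the labels form 2 series, called code series here because the sources do not say what they mark. Series 1 holds Control replicates 1 and 2 and NEC replicates 2 and 3, and series 2 holds Control replicate 3 and NEC replicate 1. Spearman's correlation over the 386 miRNAs tested was at least 0.973 within a series and at most 0.943 between series, as a description, since the miRNAs of a library share its preparation. The series stand apart, so each difference is also given within them. Markers of intestinal epithelium (9 of 9 in the table) and of mesenchyme (5 of 5) were present, while the pancreas marker miR-217-5p was at a log2 value of 0.73 to 1.27. Sums of markers were taken on the linear scale and are given as log2, so the most abundant markers weigh most. The neuronal sum and the liver marker were high in NEC replicate 1. The sum of the 2 neuronal markers, miR-124-3p and miR-9-5p, was 5.75 there against at most 2.41 in the other libraries. Neither was among the 386 miRNAs tested, and miR-124-3p had a mean of 1.34. The liver marker miR-122-5p was at 7.58 against at most 6.54. In bulk tissue, fewer cells of a type and less RNA per cell cannot be told apart.

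The guides held nearly the whole of the family's signal, and miR-30d-5p and miR-30a-5p most of that. After the log2 values were turned back to a linear scale, the 5 guides made up 2.83% to 3.55% of the sum of all 604 miRNAs, and the 3 passengers 0.0542% to 0.109%. In Control the share of the guides was 3.23% ± 0.362 (SD, n = 3). In NEC it was 3.10% ± 0.358 (SD, n = 3), which differs by less than 1 SD. All 8 members passed the minimum for testing, a log2 value of 3.32 in at least 3 libraries.

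The most abundant member was miR-30d-5p, a guide known in human melanoma to act on GALNT7, an enzyme of protein glycosylation. Its log2 value was 15.34, 14.81 and 14.91 in Control replicates 1, 2 and 3 and 14.85, 15.13 and 14.93 in NEC replicates 1, 2 and 3. All 6 values lay within 0.53 of each other, and it ranked 10 among the 604 miRNAs by mean.

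The next was miR-30a-5p, which is known in human cancer cells to act on Beclin 1, a protein of autophagy. It was at 14.39, 13.87 and 14.19 in Control and at 14.38, 13.80 and 13.85 in NEC. The groups overlapped, and NEC replicate 1 was just under the highest Control library.

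The guide miR-30e-5p, made from the Nfyc intron, split mainly by code series, and within each series NEC lay below Control. Its values were 11.24, 11.11 and 12.79 in Control and 12.48, 10.77 and 10.88 in NEC. The libraries of series 2, Control replicate 3 and NEC replicate 1, were the high ones, above all 4 libraries of series 1.

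The guide miR-30c-5p, known in the heart to act on connective tissue growth factor, was the steadiest guide. It was at 11.45, 11.23 and 11.23 in Control and at 11.12, 11.01 and 11.39 in NEC, with an SD of 0.16 over the 6 libraries against a median SD of 0.40 over the 386 miRNAs tested.

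The guide miR-30b-5p, which is known to act on GALNT7 together with miR-30d-5p, varied more. It was at 10.81, 10.05 and 10.38 in Control and at 10.61, 9.40 and 9.94 in NEC. Here NEC replicate 2 was the lowest library, and the groups overlapped.

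Among the passengers, miR-30e-3p was the most abundant and the steadiest. It is known in human glioma cells to act on the NF-kappa-B inhibitor alpha. Its log2 value was 10.15, 9.99 and 10.11 in Control and 9.94, 10.18 and 10.38 in NEC, an SD of 0.15 over the 6 libraries. Its partner strand miR-30e-5p had an SD of 0.87.

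The passenger miR-30a-3p was the member with the largest SD, 0.93. It was at 7.51, 7.21 and 7.04 in Control and at 7.15, 8.92 and 9.08 in NEC. NEC replicates 2 and 3 stood above every other library, and NEC replicate 1 lay among the Control libraries, so that the groups overlapped.

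The passenger miR-30d-3p was the least abundant member, at 3.86, 4.08 and 5.18 in Control and 5.12, 4.03 and 4.24 in NEC. It was higher in both libraries of series 2 than in any of series 1.

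**Figure D1:**
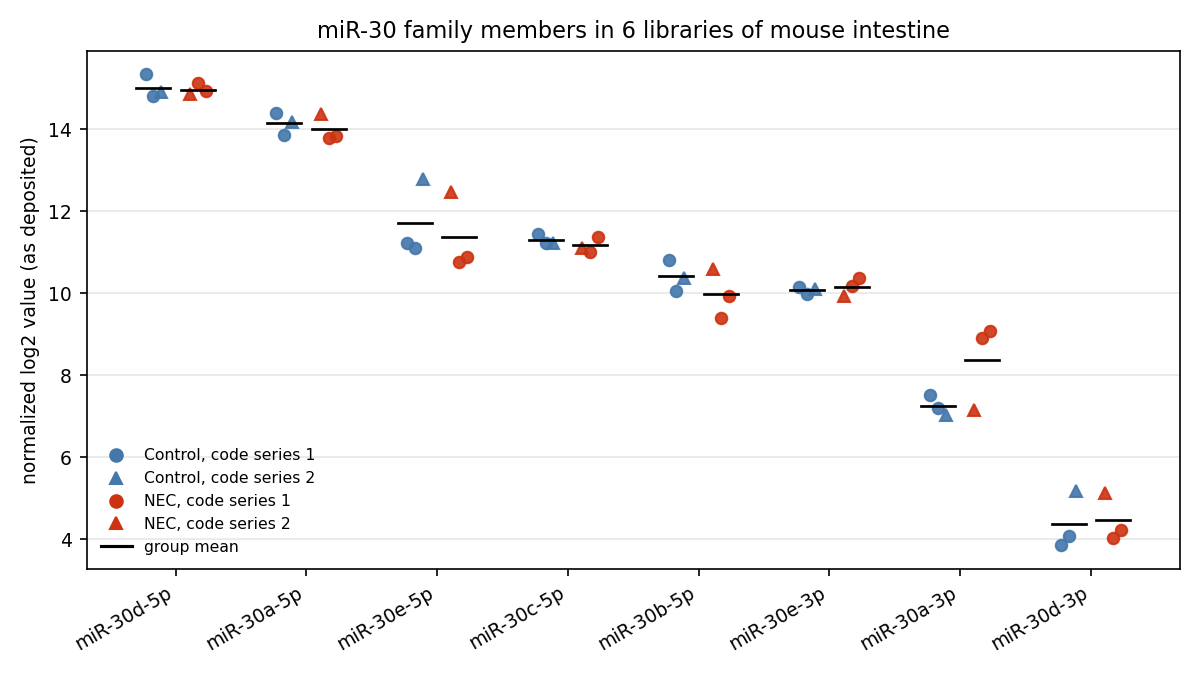
Normalized log2 values (vertical axis) of the 8 miR-30 members, ordered by mean, with 1 point per library, circles for code series 1, triangles for code series 2 and black lines for group means. The 2 NEC circles of miR-30a-3p, 8.92 and 9.08, sit above its other 4 points, and the triangles of miR-30e-5p and miR-30d-3p sit above their circles.

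By mean level the order was miR-30d-5p, miR-30a-5p, miR-30e-5p, miR-30c-5p, miR-30b-5p, miR-30e-3p, miR-30a-3p and miR-30d-3p. In 5 of the 7 neighbouring pairs this order held in all 6 libraries. The value of miR-30d-5p lay above that of miR-30a-5p by 0.92 ± 0.29 (SD, n = 6), and that of miR-30a-5p above that of miR-30e-5p by 2.53 ± 0.72 (SD, n = 6). The pair miR-30e-5p and miR-30c-5p did not differ beyond its spread (0.31 ± 0.91, SD, n = 6), and miR-30e-5p was the higher in 2 of 6 libraries, those of series 2. Nor did miR-30b-5p and miR-30e-3p (0.07 ± 0.59, SD, n = 6), with miR-30b-5p the higher in 4 of 6.

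Among the 5 guides on the linear scale, miR-30d-5p made up 58.2% to 65.7% in series 1 and 49.0% to 51.0% in series 2. The share of miR-30e-5p was 3.20% to 4.48% in series 1 and 9.44% to 11.8% in series 2. Neither range overlapped between the series. The shares of a library add up to a whole, so a higher miR-30e-5p lowers the share of miR-30d-5p. The log2 values of miR-30d-5p did overlap, at 14.81 to 15.34 in series 1 and 14.85 to 14.91 in series 2. Its lower share in series 2 is therefore not read as a lower level of its own. Many miRNAs outside the family also differed between the series, as given below.

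**Figure D2:**
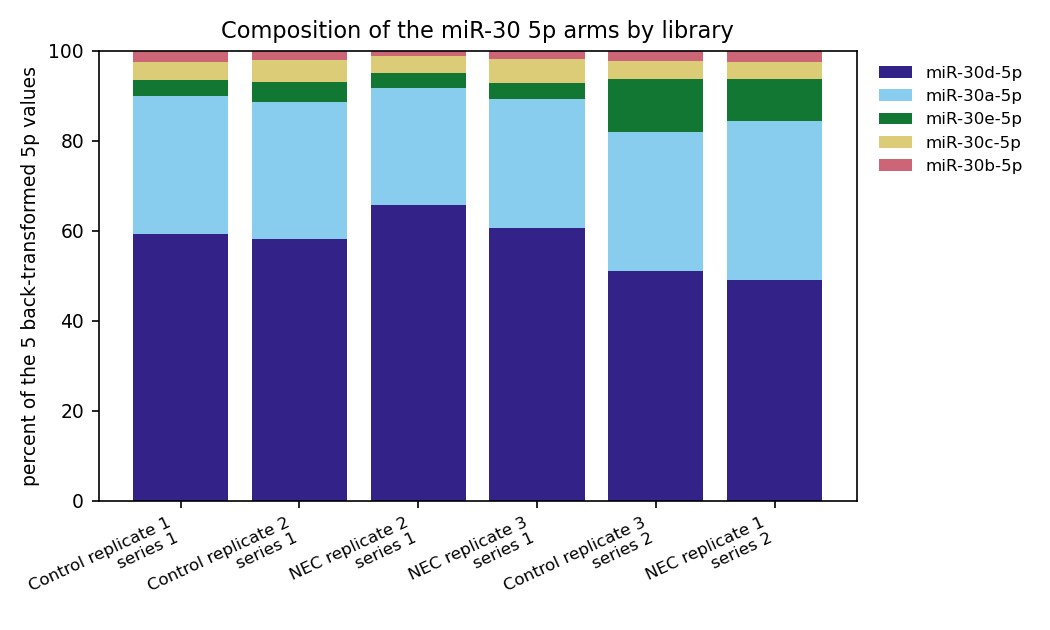
Percent of the summed back-transformed values of the 5 miR-30 guides (vertical axis) held by each guide, with 1 stacked bar per library and the code series under each name. The share of miR-30e-5p is at most 4.48% in the 4 bars of series 1 and at least 9.44% in both bars of series 2.

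The comparison of NEC with Control asks which miRNAs differ in the intestine under the NEC protocol. The 5 guides had lower means in NEC and the 3 listed passengers higher means, where 51.8% of all 386 miRNAs tested had a higher one. Of the passengers tested but not listed, miR-30b-3p differed by 0.08 and miR-30c-2-3p by -0.30 (standard error 0.51), so the split depends on the list. No member passed, and none of the 386 did (0% at an adjusted p under 0.05 in limma with Benjamini-Hochberg adjustment, and 2.85%, or 11, at an unadjusted p under 0.05, none of them a member). When the fit also held a term for the code series, 70 of the 386 had an unadjusted p under 0.05, miR-30a-3p and miR-30e-5p among them, and still 0 an adjusted one. On the log2 scale the guides differed by -0.14 (standard error 0.28) for miR-30a-5p, -0.44 (standard error 0.37) for miR-30b-5p, -0.13 (standard error 0.23) for miR-30c-5p, -0.05 (standard error 0.25) for miR-30d-5p and -0.34 (standard error 0.61) for miR-30e-5p. With these errors each difference is smaller than 1.5 standard errors, but in that second fit the standard error of miR-30e-5p was 0.13, so that its difference was larger than 2 standard errors. The difference of miR-30b-5p was -0.14 without NEC replicate 2 and -0.75 without NEC replicate 1. Within series 1 and series 2, in that order, the guides differed by -0.31 and 0.19 for miR-30a-5p, -0.77 and 0.23 for miR-30b-5p, -0.14 and -0.11 for miR-30c-5p, -0.05 and -0.05 for miR-30d-5p and -0.35 and -0.32 for miR-30e-5p. So the sign was shared by the series for 3 of the 5 guides. The median over the 8 members was -0.09, and over the 386 miRNAs 0.01. The values of NEC and Control overlapped for each of the 8 members, and failed to overlap for 9.84% of the 386. The small differences of miR-30d-5p, miR-30d-3p and miR-30e-3p changed sign with 1 library left out. That of miR-30e-5p did so only without Control replicate 3 (0.20), in a fit with no term for the code series.

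The passenger miR-30a-3p differed by 1.13 on the log2 scale (standard error 0.52), the second largest difference in size of the 386 miRNAs tested. The passengers miR-30d-3p and miR-30e-3p differed by 0.09 (standard error 0.44) and 0.08 (standard error 0.23), and for both the sign was positive in series 1 (0.17 and 0.21) and negative in series 2 (-0.06 and -0.17). Within series 1 the difference of miR-30a-3p was 1.64, against a median size of 0.26 over the 386 miRNAs, and within series 2, which has 1 library per group, it was 0.11, against a median size of 0.20. Without NEC replicate 1 it was 1.75, and without NEC replicate 3 it was 0.78. Summed epithelial markers were at a log2 value of 18.31 to 19.02 in NEC and 18.37 to 19.19 in Control, and mesenchymal markers at 18.65 to 18.93 and 18.76 to 19.43. The NEC library without a high miR-30a-3p, NEC replicate 1, is the one with a high neuronal sum and a high liver marker. Their part in the difference of miR-30a-3p was not tested.

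The question of how the strands of 1 hairpin compare was asked with the arm balance, the log2 value of the 5p arm minus that of the 3p arm in the same library. A shift of a whole library cancels in it. Both arms could be tested in 92 hairpins, 4 of them of the family, since miR-30b-3p, which is not a listed member, is also in the table. The 5p arm was the higher in 41 of the 92, and in all 4 miR-30 hairpins. Averaged over the 6 libraries, miR-30d had the largest balance of the 92, 10.58 ± 0.72 (SD, n = 6). The balance was 6.26 ± 1.13 for miR-30a, which ranked 4, 3.57 ± 0.48 for miR-30b, which ranked 17, and 1.42 ± 0.96 for miR-30e, which ranked 31 (SD, n = 6). Among the hairpins tested, the family thus ran from the strongest lean to 5p to arms only 0.50 apart, in miR-30e of NEC replicate 3. Hairpins with an arm under the minimum for testing were not ranked. A stronger lean among those was not looked for.

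The arm balance of miR-30a was 6.88, 6.66 and 7.15 in Control and 7.23, 4.87 and 4.77 in NEC. NEC replicates 2 and 3 were low and NEC replicate 1 was the highest of all 6, so that the groups overlapped. The difference between NEC and Control was -1.27 (standard error 0.68), the largest in size of the 92 hairpins. None of the 92 passed an adjusted p under 0.05 in limma (0%), and 1 had an unadjusted p under 0.05, which was miR-322, named after its value was seen. When the fit also held a term for the code series, 14 hairpins had one. The exact two-sided permutation test over the libraries gave p = 0.4 for miR-30a, where 3 libraries against 3 cannot go below 0.1. The 5p arm moved by -0.14 and the 3p arm by 1.13, so the larger part of the difference in balance was on the 3p side. Without NEC replicate 1 the balance differed by -2.08 (adjusted p = 0.0322 in limma). It differed by -0.90 without NEC replicate 2 (adjusted p = 0.975) and by -0.84 without NEC replicate 3 (adjusted p = 0.998). As the values of miR-30a-3p were known when the family was listed, the first of these p-values is no independent evidence.

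The arm balance of miR-30b was 4.03, 3.67 and 3.78 in Control and 3.95, 2.83 and 3.15 in NEC, a difference of -0.51 (standard error 0.35). It was -0.27 without NEC replicate 2 and -0.84 without NEC replicate 1. Here too NEC replicates 2 and 3 were the low libraries and NEC replicate 1 lay among Control. The 3p arm was at 6.79, 6.38 and 6.60 in Control and 6.65, 6.56 and 6.79 in NEC, a difference of 0.08 (standard error 0.23), so the difference in balance was mostly on the 5p side.

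For miR-30d the balance was 11.48, 10.74 and 9.73 in Control and 9.73, 11.10 and 10.69 in NEC (difference -0.14, standard error 0.55). For miR-30e it was 1.09, 1.12 and 2.69 in Control and 2.54, 0.59 and 0.50 in NEC (difference -0.42, standard error 0.70). In both the libraries of series 2 stood apart from those of series 1. The exact permutation p was 0.3 for miR-30b, 0.8 for miR-30d and 0.5 for miR-30e. NEC and Control values did not overlap in 6.52% of the 92 hairpins, and in none of these 4.

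**Figure D3:**
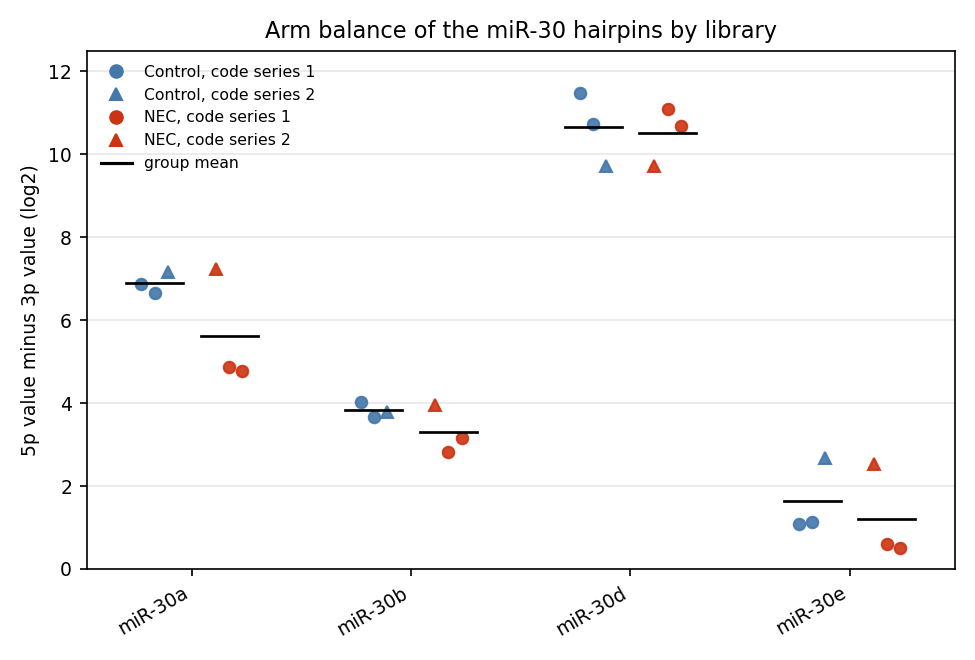
Arm balance (5p minus 3p log2 value, vertical axis) of the 4 miR-30 hairpins, with 1 point per library, circles for code series 1, triangles for code series 2 and black lines for group means. For miR-30a the 2 NEC circles, at 4.87 and 4.77, lie below all other points, which lie at 6.66 or more.

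The difference in the balance of miR-30a lay in series 1. Between NEC and Control it was -1.95 in series 1, the largest in size of the 92 hairpins, where the median size was 0.28. In series 2 it was 0.08, rank 69 of 92, with a median size of 0.17. For miR-30b the values were -0.86 and 0.17, for miR-30d -0.22 and 0.00349, and for miR-30e -0.56 and -0.15. A term for the difference between the series in limma was past an adjusted p under 0.05 for 1 of the 92 hairpins (1.09%), and that hairpin was miR-30a, with 2.03 (standard error 0.47, adjusted p = 0.00869). As the difference of miR-30a-3p in series 1 was known when the family was listed, this p is no independent evidence. Series 2 has 1 library per group, so the fit takes its spread from series 1. The call was lost without Control replicate 1 (1.92, adjusted p = 0.414) and without Control replicate 2 (2.14, adjusted p = 0.242). For single miRNAs the same term was past the threshold for none of 386 (0%, with 15, or 3.89%, at an unadjusted p under 0.05 in limma), and for miR-30a-3p it was -1.53 (standard error 0.36, adjusted p = 0.217). Without Control replicate 1, which leaves 1 Control library in series 1, it was -1.68. There all miR-30 members had the same standard error, 0.449. That fit therefore does not measure the spread of miR-30a-3p itself.

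**Figure D4:**
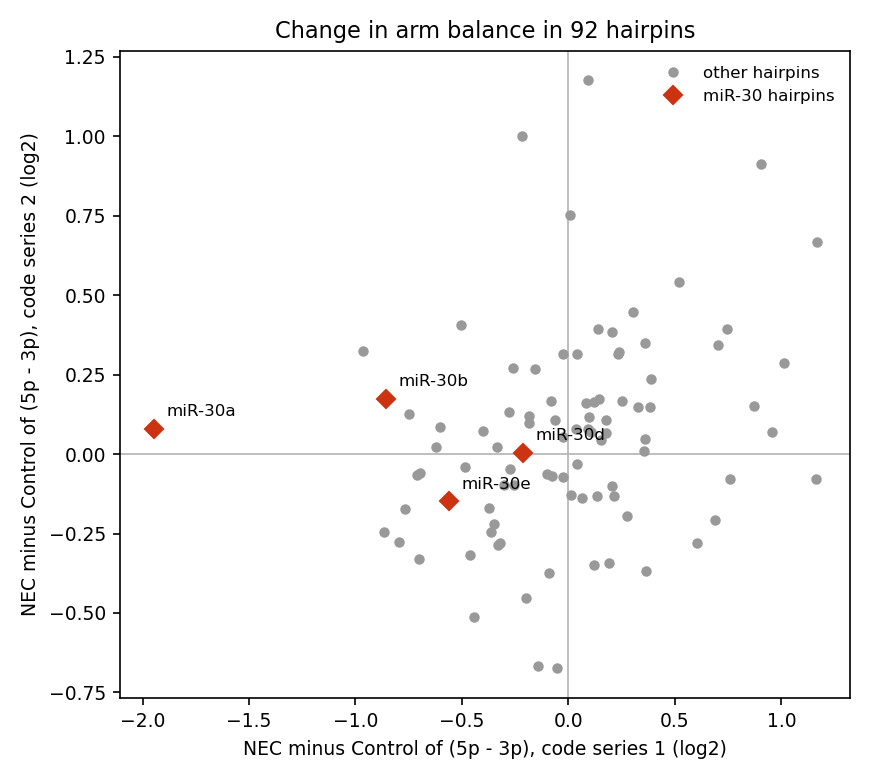
NEC minus Control difference of the arm balance (log2) in code series 1 (horizontal axis) and code series 2 (vertical axis) for 92 hairpins, with the 4 miR-30 hairpins as red diamonds. The point of miR-30a lies at -1.95 on the horizontal axis and 0.08 on the vertical axis, farther left than any other hairpin.

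The contrast of code series 2 with series 1 was not used to list the family. In limma with condition as a term, 3 of the 8 members (37.5%) passed an adjusted p under 0.05, against 57.5% of all 386 miRNAs. Of the members, 2 were higher in series 2, as were 25.4% of all, and 1 was lower, as were 32.1%. The median difference of all 386 was -0.19, and the differences below can be read relative to it.

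The guide miR-30e-5p was higher in series 2 by 1.63 on the log2 scale (standard error 0.14, adjusted p = 0.000138). It was at 12.64 ± 0.22 (SD, n = 2) in series 2 and between 10.77 and 11.24 in the 4 libraries of series 1. It stayed past the threshold in all 14 alternatives run, between 1.55 and 1.79.

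The passenger miR-30d-3p was higher by 1.10 (standard error 0.16, adjusted p = 0.00132 in limma), with 5.15 ± 0.04 (SD, n = 2) in series 2 and 4.05 ± 0.16 (SD, n = 4) in series 1. It stayed past the threshold in the 13 alternatives that kept it, between 0.91 and 1.26.

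The passenger miR-30a-3p was lower by 1.09 (-1.09, standard error 0.32, adjusted p = 0.0218 in limma), but the call was lost without any of the 3 NEC libraries. Without NEC replicate 1 it was -0.33 (adjusted p = 0.331), without NEC replicate 2 it was -1.02 (adjusted p = 0.0792), and without NEC replicate 3 it was -0.95 (adjusted p = 0.0609). With no covariate the adjusted p was 0.103. As its high values in NEC replicates 2 and 3 were known, this difference is not independent of the listing.

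The other 5 members did not pass, at 0.31 (standard error 0.20) for miR-30a-5p, 0.44 (standard error 0.31) for miR-30b-5p, -0.10 (standard error 0.17) for miR-30c-5p, -0.17 (standard error 0.19) for miR-30d-5p and -0.15 (standard error 0.16) for miR-30e-3p. Without Control replicate 1, miR-30a-5p passed at 0.45 (adjusted p = 0.0473 in limma) and miR-30b-5p at 0.68 (adjusted p = 0.0282), and without NEC replicate 1 miR-30b-5p was at -0.05. After each library was shifted by its median deviation, miR-30c-5p was at 0.06 and miR-30e-3p at 0.01.

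**Figure D5:**
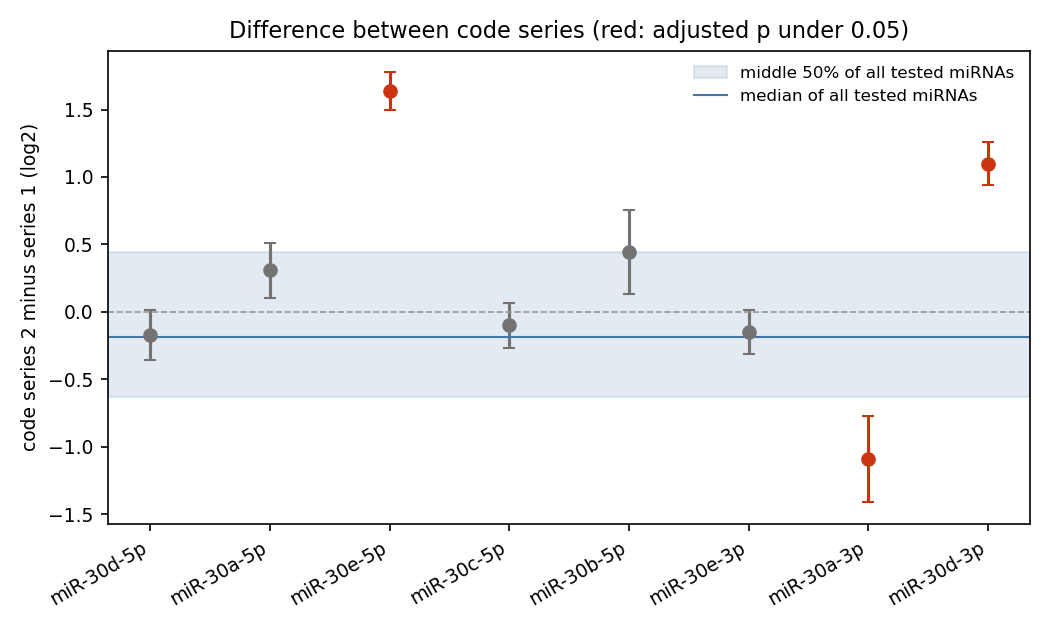
Difference between code series 2 and series 1 (log2, vertical axis) for the 8 miR-30 members, with bars of 1 standard error and red for an adjusted p under 0.05. The blue line marks the median of the 386 miRNAs tested, -0.19, and the band their middle 50%, from -0.63 to 0.44. The 3 red points lie outside that band, and miR-30b-5p, which did not pass, lies just above its edge (0.4441 against 0.4421).

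Within a hairpin, the arms often differed between the series by unlike amounts. For the arm balance, 53.3% of the 92 hairpins passed in the same fit, 30.4% with a larger 5p lean in series 2 and 22.8% with a smaller one, and 3 of the 4 miR-30 hairpins were among them. The balance of miR-30e was larger in series 2 by 1.78 (standard error 0.21, adjusted p = 9.11e-06), with 1.63 for the 5p arm and -0.15 for the 3p arm. That of miR-30d was smaller by 1.27 (-1.27, standard error 0.25, adjusted p = 0.000764), with -0.17 for the 5p arm and 1.10 for the 3p arm. That of miR-30a was larger by 1.40 (standard error 0.34, adjusted p = 0.00288 in limma), but without NEC replicate 1 it was 0.38 (adjusted p = 0.372), and with no covariate the adjusted p was 0.0716. For miR-30b the difference was 0.45 (standard error 0.26, adjusted p = 0.152 in limma). It passed without Control replicate 1 (0.60, adjusted p = 0.0417 in limma), but there all 4 miR-30 hairpins had the same standard error, 0.26. That fit therefore does not measure the spread of miR-30b itself. Without Control replicate 3 and without NEC replicate 1, which each leave 1 library in series 2, the difference was 0.96 and -0.07. The hairpins of miR-30d and miR-30e stayed past the threshold in the 11 and 12 alternatives run.

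Markers of some cell types moved with the code series as well. Of the 9 markers of epithelium 7 were higher in series 2. The log2 of the linear sum of all 9 was 19.02 to 19.19 there against 18.31 to 18.75 in series 1. Such a sum follows its most abundant markers, here miR-215-5p at a mean of 17.16. None of the 4 leukocyte markers in the table was higher in series 2, with sums of 8.51 to 8.71 against 9.45 to 9.86. Both endothelial markers were, with sums of 15.45 to 15.67 against 14.87 to 15.12. The summed striated muscle markers were at 11.51 to 11.96 in series 2 and 10.45 to 11.07 in series 1, with 1 of 3 higher. Other sums overlapped between the series. Mesenchymal markers were at 18.93 to 18.97 in series 2 and 18.65 to 19.43 in series 1. Red blood cell markers were at 9.71 to 10.42 in series 2 and 9.40 to 10.09 in series 1. The neuronal sum and the liver marker were high in only 1 library of series 2, NEC replicate 1. Their part in the differences of the miR-30 arms was not tested.

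The table holds 4 further miR-30 entries, miR-30b-3p among them, and 3 passed the minimum. None passed the threshold for NEC against Control. The passenger miR-30c-2-3p, from the hairpin next to miR-30a, was at 9.06, 8.37 and 7.22 in Control and 7.29, 8.24 and 8.20 in NEC. It was lower in series 2 by 1.21 (-1.21, standard error 0.23, adjusted p = 0.00388 in limma), while miR-30c-5p was at -0.10. The other passenger, miR-30c-1-3p, lay under the minimum, at 2.70 to 2.98. The seed of both is UGGGAGA, unlike that of miR-30a-3p.
miR-30c-2-3p: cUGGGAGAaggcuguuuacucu
miR-30c-1-3p: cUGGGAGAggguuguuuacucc

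The entry miR-30f is annotated on the plus strand of the miR-30e locus, opposite to miR-30e-3p. It is shown because 19 of its bases are the reverse complement of miR-30e-3p.
miR-30f: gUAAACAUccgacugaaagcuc
Its value lay below that of miR-30e-3p by nearly the same amount in every library, 0.14 ± 0.0057 (SD, n = 6). The SD of that gap is far under the SD of 0.15 of either entry, so miR-30f is not read as a separate measurement. The sources used here do not say how reads were assigned to strands.

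The miRNAs with a pattern most like that of miR-30a-3p were looked for among the tested miRNAs outside the family, by the root mean square difference of log2 values centred on their mean over the 6 libraries. The nearest was miR-770-3p (0.38), then miR-409-3p (0.40) and miR-323-3p (0.41), against a median of 0.86. All 3 lie on chromosome 12 of GRCm38 between 109563744 and 109743225. The value of miR-770-3p was 5.63, 5.52 and 4.60 in Control and 4.62, 6.47 and 6.30 in NEC, so that NEC replicates 2 and 3 were high and NEC replicate 1 was not. For the mean of the 5 guides the nearest were miR-872-3p (0.11), miR-152-3p (0.11) and miR-345-5p (0.13), against a median of 0.47. These patterns share their libraries and are a description only.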

How the data were processed

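Small RNA of 6 libraries of mouse intestine was sequenced by the authors, with the NEBNext small RNA kit and 50 bp single-end reads per the labels and the methods. The authors deposited normalized log2 values of 604 miRNAs, in 6 columns that were matched by the library code in the labels, with 0 columns left over. The submitters' processing notes name the build mm10. The sources used here do not name the aligner, the miRNA annotation, the strand setting or how the log2 values were made.

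Deposited values were fitted without change in limma (version 3.58.1, R version 4.3.3), two-sided, with Benjamini-Hochberg adjustment over all features tested. Tested were 386 miRNAs that reached 3.32 on the log2 scale (10 on the linear scale) in at least 3 libraries, and 92 hairpins with both arms past it. Fits were NEC against Control with no covariate, code series with condition as a covariate, and the product of both. The scripts were tested on simulated data. Sequences came from RefSeq (GRCm38.p6) and host genes from GENCODE M21. The members, lists and naming rule (the members, other miR-30 entries, the 3 nearest patterns, and the 3 other hairpins with the largest change in arm balance) were chosen with earlier results of these data known. The alternatives were filters, shifts of libraries, added constants of 1 and 5, a robust fit, the replicate block, the code series, and leaving out each library (for the product, each of the 4 libraries of series 1).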

Additional observations from a re-analysis of the deposited data

Results flagged for a closer look

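The arm balance of miR-30a differed between the code series in its NEC minus Control difference, by 2.03 on the log2 scale (standard error 0.47, adjusted p = 0.00869 over 92 hairpins in limma). In series 1 both NEC libraries lay below both Control libraries, and in series 2 the only NEC library lay above the only Control library by 0.08. Of 8 alternatives, the call was lost in those without Control replicate 1 and without Control replicate 2. The hairpin was listed with its difference in series 1 known.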

How the results depend on the processing

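No count at an adjusted p under 0.05 changed by more than 1.5 times except as follows. For NEC against Control, the libraries of code series 1 gave 2 miRNAs by themselves, miR-30a-3p (1.64, adjusted p = 0.0132) and miR-5099, so 1 member, and 11 hairpins, miR-30a (adjusted p = 1.31e-06) and miR-30b (adjusted p = 0.0312) among them. The family was listed with these values of 2 libraries against 2 known, so these p-values are no independent evidence. With the code series as a covariate 1 hairpin passed, miR-27a, and the adjusted p of miR-30a was 0.0688. Leaving out 1 library gave 0 to 1 hairpins for NEC against Control, miR-30a at -2.08 (adjusted p = 0.0322) without NEC replicate 1, again on values known at listing. The same gave 118 to 210 miRNAs and 41 to 52 hairpins between the code series, against 222 and 49, and, over the 4 libraries of series 1, 0 to 8 miRNAs and 0 to 1 hairpins for the interaction, against 0 and 1. Without Control replicate 1 and without Control replicate 2, all miR-30 members had the same standard error in the interaction fit. Those fits therefore do not measure the spread of each member itself. For the hairpins between the series, no filter gave 87 of 176 and a minimum of 50 gave 29 of 54, as more or fewer were tested. For the interaction, 1 miRNA passed with no filter (miR-9-5p) and 1 with the 75th percentile shift (miR-203b-5p). Names outside the family were added after their values were seen.

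At an unadjusted p under 0.05 for NEC against Control, the 11 miRNAs became 70 once the code series was a term of the fit, 66 in series 1, 3 to 33 with 1 library left out, 3 with the replicate block, and 21 with no filter or with a robust fit. The 1 hairpin became 14, 24, 0 to 10 and 0 in that order, 1 with no filter and 8 with a robust fit.

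Without 1 library, NEC minus Control ran from -0.16 to 0.11 for miR-30d-5p, -0.24 to 0.50 for miR-30d-3p, -0.89 to 0.20 for miR-30e-5p, -0.75 to -0.14 for miR-30b-5p, -0.025 to 0.19 for miR-30e-3p and 0.78 to 1.75 for miR-30a-3p, and in the arm balance from -0.84 to -0.27 for miR-30b, -0.60 to 0.28 for miR-30d and -1.09 to 0.10 for miR-30e. The difference between the series ran from -0.052 to 0.94 for miR-30b-5p, -0.34 to 0.040 for miR-30e-3p and -0.070 to 0.96 for the balance of miR-30b. The median shift turned it to 0.060 for miR-30c-5p and 0.011 for miR-30e-3p. The interaction term of miR-30d-5p was 0.00799 with the median shift and 0.00702 with the 75th percentile shift, and without 1 library of series 1 it ran from -0.27 to 0.26, with -0.16 to 0.21 for miR-30c-5p, -0.028 to 0.098 for miR-30e-5p and -0.16 to 0.59 for the balance of miR-30d. The cause of these changes was not tested.

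Deviations from the group means of same-numbered libraries correlated at -0.69, 0.73 and -0.78 for replicates 1, 2 and 3. Replicates 1 and 3 set libraries of unlike code series against each other. These values therefore cannot tell whether the replicate numbers of the titles pair the libraries. With the replicate block, 0 of 386 miRNAs and 0 of 92 hairpins passed for NEC against Control, and 204 miRNAs and 51 hairpins differed between the series. The table holds no counts, so no limit by depth can be given.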

Other observations

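The only miRNA outside the family in the RefSeq table with the seed GUAAACA, miR-384-5p, was in the table at a log2 value of 2.50 to 3.00, under the minimum for testing. Outside the family, the hairpins with the largest NEC minus Control difference in arm balance were miR-1247 (1.00, standard error 0.46), miR-27a (0.91, standard error 0.39) and miR-700 (0.77, standard error 0.37), all with a larger balance in NEC and none past an adjusted p under 0.05 in limma. When the code series was added to the fit, miR-27a passed (adjusted p = 0.0354). For miR-27a the difference was nearly equal in both code series, 0.90 and 0.91, where those of miR-30a were -1.95 and 0.08.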
